A study of Mus musculus with 2 samples.

Results

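The expression of 8 osteochondrogenic and calcification genes, Spp1, Acan, Mgp, Tnfrsf11b, Sox9, Runx2, Alpl and Enpp1, was followed across the cells of the aneurysmal mouse aorta. They were taken by gene symbol from the 55450 genes counted in both libraries, and each symbol matched 1 gene. Single cells came from the aorta of Apoe-/- mice aged 12 weeks in which angiotensin II had induced an abdominal aortic aneurysm, and were read with 10x 3' v3 chemistry. All cells shared this genotype, age and model, and the groups differed in treatment, DMSO (a solvent) or an inhibitor. The sources used here do not give the inhibitor's name, dose and timing or the number of animals, and the groups were read from title initials through the series design. Each group held 1 library, so no test was run and no p-value is given. All intervals are exact 95% intervals that cover counting error only.

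Vascular smooth muscle cells that lose contractile proteins can take up a matrix-producing programme that overlaps with that of chondrocytes and bone cells. Sox9 and Runx2 are the transcription factors that start cartilage and bone formation. Acan encodes aggrecan, a cartilage proteoglycan, and Spp1 encodes osteopontin, a secreted phosphoprotein of mineralised tissue and of macrophages that binds integrins and CD44. The mineral balance is set in part by Alpl, the tissue-nonspecific alkaline phosphatase that removes the inhibitor pyrophosphate, and by Enpp1, the enzyme that makes pyrophosphate from ATP. Mgp encodes matrix Gla protein, a vitamin K dependent inhibitor of arterial calcification, and Tnfrsf11b encodes osteoprotegerin, the soluble decoy receptor of RANKL.

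The DMSO library held 9125 barcodes with 101139161 unique molecular identifiers (UMIs), and the inhibitor library 8149 barcodes with 79648307 UMIs. After filtering, 8411 and 7417 cells were kept, with medians of 7935 and 8991 UMIs per cell, and 15 of the kept barcodes occurred in both libraries. Clusters were named from marker genes, and every name is to be read as "like", since it rests on markers alone. The makeup differed widely: smooth muscle-like cells were 9.31% of DMSO cells and 42.0% of inhibitor cells, macrophage-like cells 19.4% and 8.83%, and fibroblast-like cells 23.6% and 27.2%. Levels are given as CPM, the UMIs of a gene per 1000000 UMIs of the named cells, first for DMSO and then for the inhibitor, and compared within a gene only.

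All 8 genes are protein coding in GENCODE M21 on GRCm38. Spp1 lies at chr5:104435118-104441050 on the plus strand, Acan at chr7:79053483-79115099 (plus) and Sox9 at chr11:112782224-112787760 (plus). Mgp lies at chr6:136872435-136875823 (minus), Tnfrsf11b at chr15:54250619-54278484 (minus) and Runx2 at chr17:44495987-44814797 (minus). Alpl lies at chr4:137741733-137796384 and Enpp1 at chr10:24637914-24712159, both on the minus strand. Runx2 is overlapped by the antisense genes Runx2os1, Runx2os2 and Runx2os3 and by Supt3, and Spp1 by Gm42793 on its own strand. The sources used here do not say whether counting used strand, so Runx2 reads may be split or shared with these neighbours.

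Modulated smooth muscle-like cells were 1 cluster of 290 cells, 198 from DMSO and 92 from the inhibitor. They passed 12 of 13 smooth muscle markers and 13 of 14 markers of the modulated state. The modulated markers set them apart from the other smooth muscle-like cells only, not from fibroblast-like cells. These markers summed to 27850 and 23330 CPM, against 9211 and 6936 CPM in the other smooth muscle-like cells. Fibroblast-like cells had more, at 34500 and 31420 CPM. Their summed smooth muscle markers stood at 19520 and 25610 CPM, against 51380 and 57780 CPM in the other smooth muscle-like cells, so contractile genes were present at a lower level. Fibroblast markers summed to 30400 and 17890 CPM, below the 67480 and 64850 CPM of fibroblast-like cells. Macrophage markers summed to 148 and 88.5 CPM, against 13570 and 16740 CPM in macrophage-like cells. Among the cluster's 10 leading genes were Acan and Tnfrsf11b, beside Eln, which encodes elastin, and Ltbp2, although the 8 genes were left out of the clustering. The cells were 25.3% (22.3 to 28.5) of DMSO smooth muscle-like cells and 2.95% (2.39 to 3.61) of those in the inhibitor library. Since the rest of the class was contractile, class values of smooth muscle follow this makeup. The share of modulated cells depended on the filters, although it was lower in the inhibitor library under each filter tried. With at least 1000 genes per cell they were 460 of 767 DMSO and 632 of 3068 inhibitor smooth muscle-like cells. At most 10% mitochondrial UMIs gave 386 of 755 and 326 of 3077, and keeping doublets 249 of 816 and 156 of 3198. At the lower clustering resolutions no cluster was called modulated. Resolution 1 gave 577 DMSO and 3013 inhibitor smooth muscle-like cells, against 783 and 3115 at the resolution used. Fibroblast-like cells were 2164 and 2014, against 1983 and 2021. Class membership thus changed with the resolution, and which name the modulated cells took there was not followed.

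The 8 genes fell into different cells. Among clusters with at least 50 cells of a library, aggrecan and matrix Gla protein were highest in modulated smooth muscle-like cells in both libraries. Osteoprotegerin was highest there in DMSO, and in the inhibitor library at the level of a fibroblast-like cluster. Osteopontin was highest in a macrophage-like cluster in both libraries, and modulated smooth muscle-like cells came next in DMSO only. Sox9 and Alpl were highest in fibroblast-like clusters, and Runx2, over both libraries together, in T cell-like and neutrophil-like cells. Enpp1 was at similar levels in several smooth muscle-like and Schwann-like clusters.

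**Figure D1:**
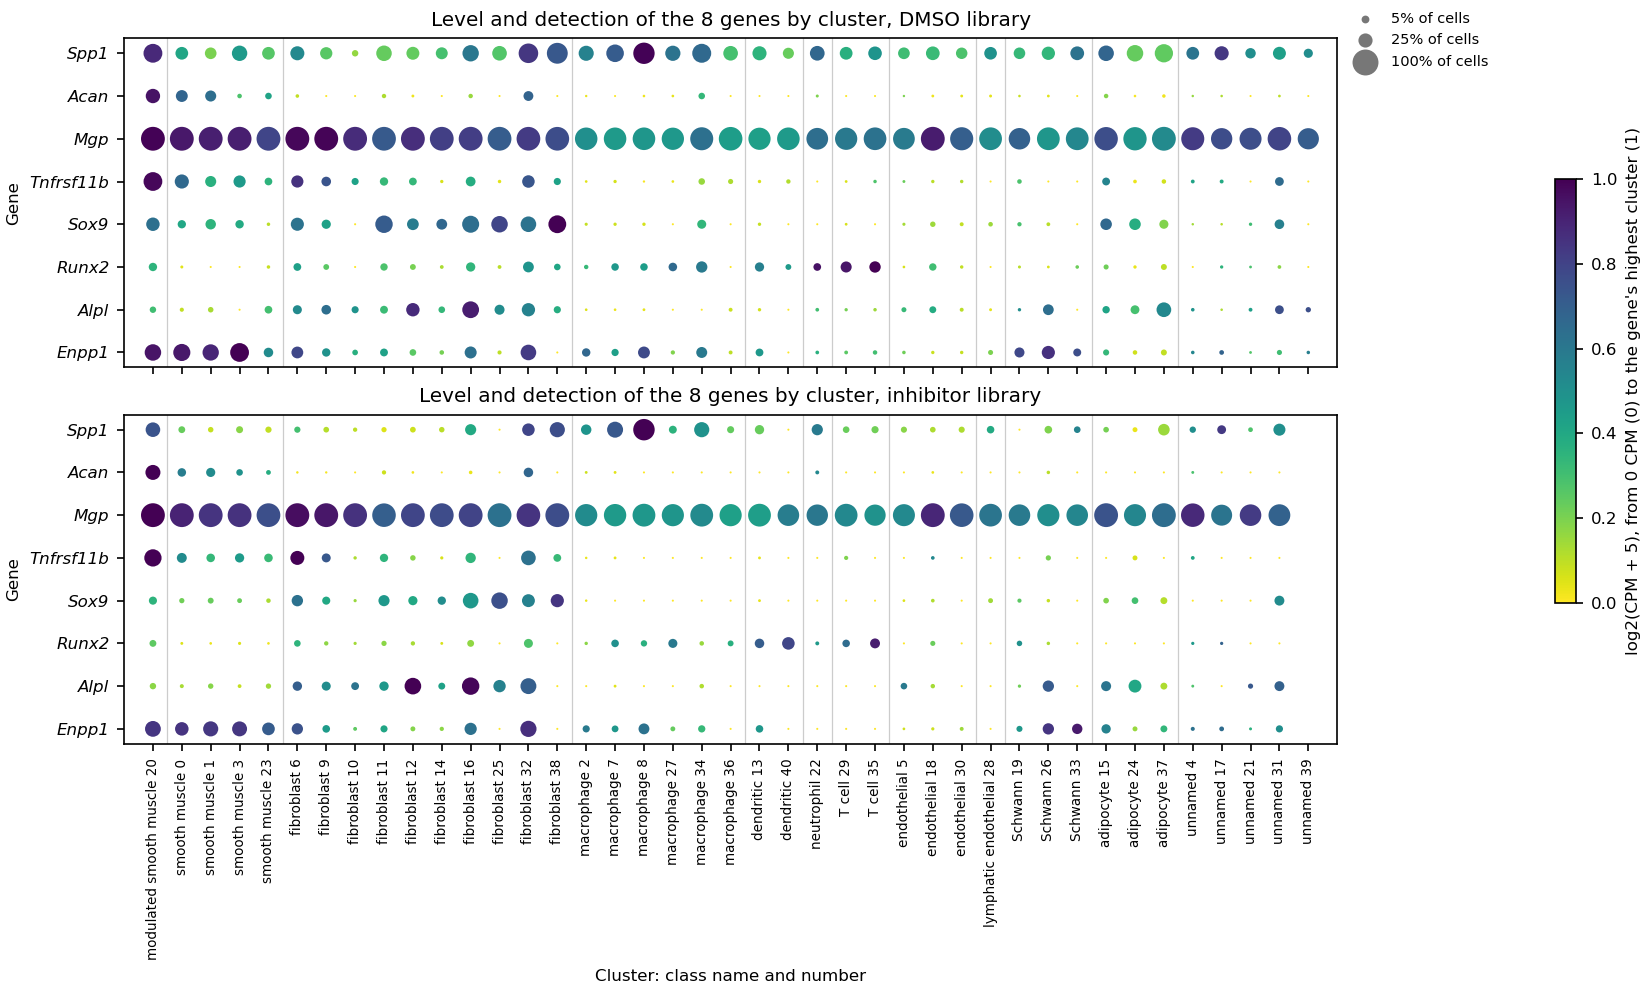
Level (colour, log scale of CPM) and share of cells with a UMI (dot size) of the 8 genes in each described cluster. The DMSO and inhibitor libraries are in separate panels. Among clusters with at least 50 cells of a library, Acan and Mgp peak in the modulated smooth muscle-like cluster in both. Spp1 peaks in a macrophage-like cluster in both. Tnfrsf11b peaks in the modulated cluster in DMSO, while in the inhibitor library a fibroblast-like cluster is at the same level.

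Sox9 was low to moderate in smooth muscle and higher in fibroblast-like cells. In modulated smooth muscle-like cells it stood at 48.3 CPM (41.6 to 55.7) and 13.8 CPM (8.95 to 20.4), from 188 and 25 UMIs. In the other smooth muscle-like cells it was 15.2 and 6.42 CPM. The intervals of the modulated cells did not meet, while the other cells were under the minimum level for a comparison. Fibroblast-like cells held 57.7 and 25.7 CPM and 70.9% and 66.1% of all Sox9 UMIs of their library. Macrophage-like cells were near 0, at 2.33 and 0.209 CPM, and T cell-like cells at 0.898 and 0 CPM.

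In DMSO, Sox9 was highest in a small cluster led by Apod, Tenm2, Thbs4 and Cldn1. This fibroblast-like cluster held 72 DMSO and 10 inhibitor cells, with 204 and 113 CPM. Next in DMSO came a fibroblast-like cluster led by Cxcl13 and Col6a5, with 91.6 and 78.4 CPM, the second value from 19 cells. A cluster led by Pla1a, Cd55 and Cd248 followed, with 67.0 and 23.6 CPM. In the inhibitor library the highest cluster of at least 50 cells was the fibroblast-like one led by Col4a4, Dio2 and Fmod, with 45.6 and 46.7 CPM. The order of the fibroblast-like clusters thus differed between the libraries.

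Runx2 was sparse in the vessel wall. In modulated smooth muscle-like cells it was 7.45 and 4.43 CPM, and in the other smooth muscle-like cells 0.471 and 0.548 CPM. A UMI was found in 11.6% and 7.61% of the modulated cells, but in 1.52% and 1.11% once each cell was thinned to 2000 UMIs, near the level of 1 UMI. Fibroblast-like cells stood at 6.04 and 3.27 CPM and macrophage-like cells at 11.7 and 7.73 CPM. The highest levels were in immune cells. T cell-like cells held 53.9 CPM (41.1 to 69.3) and 31.2 CPM (14.2 to 59.1), and neutrophil-like cells 53.5 CPM from 25 UMIs and 11.5 CPM from 1 UMI. Dendritic-like cells held 15.9 and 26.8 CPM. Among macrophage-like clusters the highest was one led by Chil3 and Ly6c2, monocyte genes, at 21.6 CPM over both libraries. No smooth muscle-like cluster was among the 5 highest for Runx2.

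Acan was concentrated in smooth muscle. Modulated cells held 103 and 121 CPM, and the other smooth muscle-like cells 30 and 21.9 CPM. A UMI was seen in 35.9% and 39.1% of modulated cells and in 18.3% and 11.3% of the others, at medians of 18580 and 18300 UMIs against 13730 and 11190 UMIs. At 2000 UMIs per cell the share in modulated cells was 11.1% and 15.6%. Fibroblast-like cells stood at 4.58 and 3.78 CPM as a class, although their dividing cluster, led by Ube2c and Top2a, reached 40.9 and 39.1 CPM. That cluster passed 14 of 14 fibroblast markers and also 13 of 14 markers of the modulated state. Its smooth muscle markers summed to 7814 and 8548 CPM, against 1694 and 2472 CPM in fibroblast-like cells as a class, and their part in its values was not tested. T cell-like cells held no Acan UMI. Allowing up to 3 cells, a limit that is not an exact interval, the share with a UMI would be 1.26% of DMSO and 4.48% of inhibitor cells. The modulated cells gave 44.4% of all DMSO Acan UMIs but 19.7% of those in the inhibitor library, where the other smooth muscle-like cells gave 72.1%. Over both libraries Acan was 108 CPM in the modulated cluster, then 40.1 CPM in the dividing fibroblast-like cluster and 31.4, 22.3 and 17.4 CPM in 3 contractile clusters.

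Spp1 came mainly from macrophage-like cells, which gave 54.7% and 58.4% of its UMIs, with 18.0% and 12.5% from modulated smooth muscle-like cells and 17.6% and 22.7% from fibroblast-like cells. Fibroblast-like cells thus gave more than modulated cells in the inhibitor library, but most of this came from the 59 inhibitor cells of their dividing cluster. The remaining fibroblast-like cells gave less than modulated cells there. Its levels were 2731 and 1940 CPM in macrophage-like cells, 3175 CPM (3119 to 3231) and 1098 CPM (1051 to 1148) in modulated smooth muscle-like cells, and 331 and 166 CPM in fibroblast-like cells. In the other smooth muscle-like cells it was 92.7 and 11.3 CPM. The modulated value therefore lay above the macrophage value in DMSO and below it in the inhibitor library.

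The promoters of Spp1 and Enpp1 are shown because a RUNX motif, the sequence bound by Runx2 and its relatives, is found in both. The 250 bases before the start of each gene were searched on both strands for TGTGGT (or ACCACA). The sequences are from RefSeq on GRCm38.p6, 5' to 3' on the gene's own strand, with the motif in capitals. Spp1 is on the plus strand (chr5:104434861-104435110) and Enpp1 on the minus strand (chr10:24712160-24712409).
Spp1: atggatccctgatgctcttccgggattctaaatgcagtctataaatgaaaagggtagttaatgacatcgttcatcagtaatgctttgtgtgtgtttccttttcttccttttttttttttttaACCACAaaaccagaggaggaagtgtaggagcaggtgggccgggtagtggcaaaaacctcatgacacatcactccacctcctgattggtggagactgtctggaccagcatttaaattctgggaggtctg
Enpp1: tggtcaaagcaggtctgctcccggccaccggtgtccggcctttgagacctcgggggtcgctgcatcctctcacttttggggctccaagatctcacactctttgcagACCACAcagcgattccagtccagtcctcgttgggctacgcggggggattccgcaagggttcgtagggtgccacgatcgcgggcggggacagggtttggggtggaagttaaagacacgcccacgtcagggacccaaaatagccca
The motif begins 128 bases before the Spp1 start and 144 bases before the Enpp1 start. It was also found upstream of Runx2 itself, and not in the same stretch of Acan, of a second Spp1 start or of either Alpl start. It occurs in 14.0% of the 32851 promoters in the table, and a match is a description of letters, not of binding. No matching promoter entry was used for Mgp, Tnfrsf11b or Sox9.

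The background of Spp1, which free RNA can give, was read from T cell-like and endothelial-like cells and was lower in the inhibitor library. T cell-like cells, at medians of 4059 and 4008 UMIs, held 96.1 CPM (78.7 to 116) and 20.8 CPM (7.62 to 45.2), with a UMI in 29.3% and 7.46% of cells. Of the 107 DMSO UMIs 28 were in 1 T cell-like cell. Endothelial-like cells, at medians of 5447 and 4445 UMIs, held 43.4 and 9.12 CPM, with a UMI in 25.3% and 5.44%. The level in the other smooth muscle-like cells was below that of T cell-like cells and above that of endothelial-like cells in both libraries, and at 2000 UMIs per cell its share, 6.57% and 1.27%, was below the 17.6% and 6.35% of T cell-like cells. That level was not told apart from background here, nor were the endothelial-like and dendritic-like values. In DMSO the other smooth muscle-like cells lay near the T cell-like level with a UMI in fewer cells, so their UMIs were less evenly spread. The source of these UMIs was not tested. In modulated cells the share at 2000 UMIs was 32.3% and 22.2%, and in macrophage-like cells 39.5% and 23.3%.

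Spp1 was carried by few of the modulated cells. In DMSO the median cell held 59.9 CPM, 40 of 198 cells (20.2%) exceeded 1000 CPM, and the 10 highest cells gave 73.9% of the UMIs. In the inhibitor library the median cell held 0 CPM, 15 of 92 cells (16.3%) exceeded 1000 CPM, and the 10 highest cells gave 90.4%. The highest DMSO cell had 2192 UMIs (17.7% of the total), and the highest inhibitor cell 850 UMIs (42.8%). In both libraries the level of the cluster was thus that of a minority of its cells. In the macrophage-like cluster with the highest level the median cell held 1206 and 1819 CPM, and 54.0% and 59.6% of cells exceeded 1000 CPM.

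**Figure D2:**
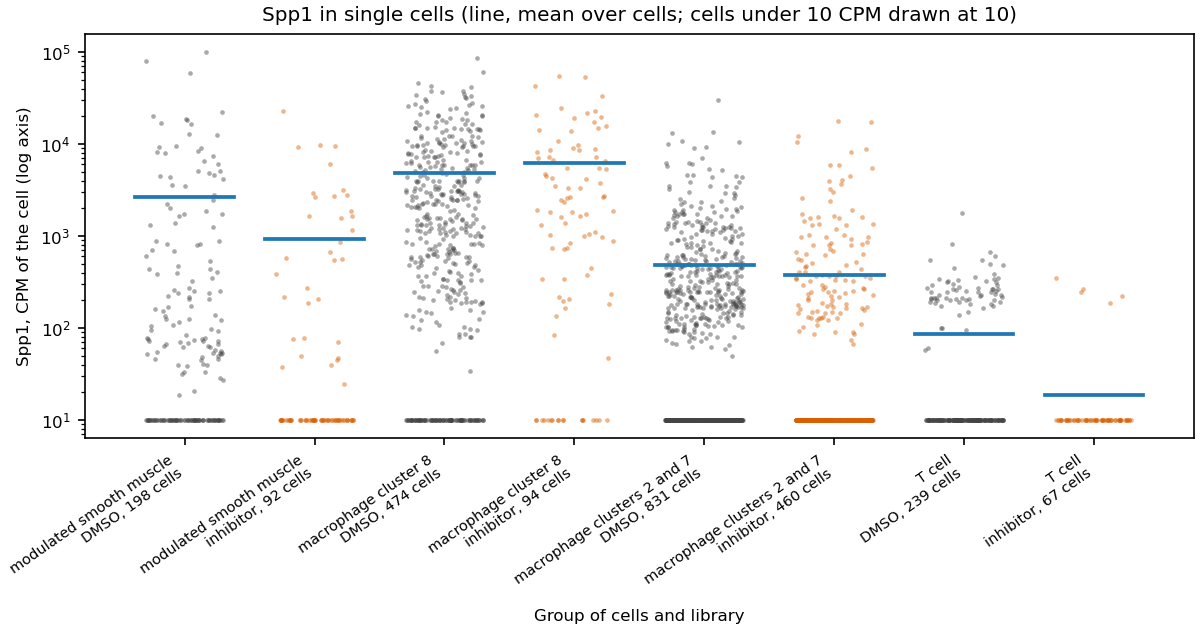
Spp1 in single cells (CPM per cell, log scale) of the modulated smooth muscle-like cluster and of other clusters, with DMSO and inhibitor cells apart. In modulated cells 20.2% of DMSO and 16.3% of inhibitor cells lie above 1000 CPM, against 54.0% and 59.6% in the highest macrophage-like cluster.

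The macrophage-like clusters differed widely in Spp1. The highest, led by Cd5l, Mmp12, Fabp5, Gpnmb, Lgals3, Trem2 and Spp1 itself, markers of lipid-laden macrophages, held 7032 and 7394 CPM. It was 29.0% of DMSO macrophage-like cells and 14.4% of those from the inhibitor library. A cluster led by Cx3cr1, Ccr2 and Ms4a7 held 908 and 1007 CPM, and one led by Cd163, Folr2 and Mrc1, markers of resident macrophages, 293 and 166 CPM. Within the first 2 clusters the level was as high in the inhibitor library as in DMSO, with ratios of 1.05 (1.03 to 1.08) and 1.11. An unnamed cluster led by Mmp9, with a median of 1007 UMIs per cell, held 2230 and 2223 CPM.

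Fibroblast-like Spp1 was uneven as well. The dividing cluster, which carries the smooth muscle and modulated markers given above, held 2343 and 1636 CPM from 85 and 59 cells, and in the inhibitor library its 10 highest cells gave 99.7% of its UMIs. Those 59 cells gave 19.8% of all Spp1 UMIs of the inhibitor library. The cluster with the highest DMSO Sox9 held 1018 and 1318 CPM. A cluster led by Cxcl14, Saa3, Cxcl5, Mmp3 and Il6, inflammatory genes, held 402 and 84.9 CPM, with 33.4% of its DMSO UMIs in 1 cell.

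Mgp was high in all mesenchymal cells and highest in modulated ones. They held 33880 and 35970 CPM, the other smooth muscle-like cells 17650 and 10730 CPM, fibroblast-like cells 8765 and 12540 CPM and endothelial-like cells 7997 and 8526 CPM. Every modulated cell had a UMI, but so did 87.9% and 86.6% of T cell-like cells, whose level was 1063 and 502 CPM. The macrophage-like level, 429 and 379 CPM, and the dendritic-like level, 248 and 325 CPM, were under it and are not told apart from background. In each library 2 fibroblast-like clusters with Fmod among their leading genes came next, one with 31060 and 26720 CPM and the other with 33100 and 21200 CPM.

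Tnfrsf11b was highest in modulated cells and in 1 fibroblast-like cluster. Modulated cells held 210 and 222 CPM, with a UMI in 61.6% and 52.2% of cells. The other smooth muscle-like cells held 43.3 and 20.5 CPM, with a UMI in 29.4% and 14.2%. Fibroblast-like cells held 27.7 and 59.0 CPM as a class, and 40.3% and 51.2% of the UMIs of their library. Their highest cluster, led by Col4a4, Dio2, Fmod and Tnfrsf11b, held 127 and 225 CPM. This was below the modulated cluster in DMSO, and in the inhibitor library the intervals, 209 to 241 and 201 to 245, overlapped. The inhibitor value of the modulated cells leaned on its highest cell. Without the highest cell of each library, the ratio between the libraries fell from above 1 to below it, as given later. Macrophage-like cells were near 0, at 1.17 and 0.418 CPM.

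Alpl was a fibroblast-like transcript. Fibroblast-like cells held 50.4 and 52.7 CPM and 77.8% and 83.9% of all Alpl UMIs. Modulated smooth muscle-like cells held 8.73 and 3.87 CPM, with a UMI in 6.57% and 6.52% of cells, and the other smooth muscle-like cells 2.12 and 3.15 CPM. The 2 highest clusters did not differ beyond their intervals over both libraries. A cluster led by Myoc, Sfrp4, Comp and Cilp held 106 CPM, and the cluster led by inflammatory genes 105 CPM. Schwann-like cells held 26.7 and 24.2 CPM.

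Enpp1 did not set modulated cells apart from the other smooth muscle. Modulated cells held 61.1 and 45.4 CPM and the other smooth muscle-like cells 56.9 and 43.6 CPM, with a UMI in 47.5% and 43.5% and in 48.2% and 36.2% of cells. Schwann-like cells held 41.3 and 36.7 CPM, macrophage-like cells 21.5 and 15.3 CPM, and fibroblast-like cells 16.9 and 16.3 CPM. Over both libraries the modulated cluster, at 56.1 CPM, was followed by clusters at 50.2, 49.4, 46.5, 46.0, 44.8 and 44.7 CPM, each overlapping its neighbour's interval. A smooth muscle-like cluster led by Pln and Nrip2 stood lower, at 26.8 CPM (21.9 to 32.5), below the intervals of the other smooth muscle-like clusters.

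**Figure D3:**
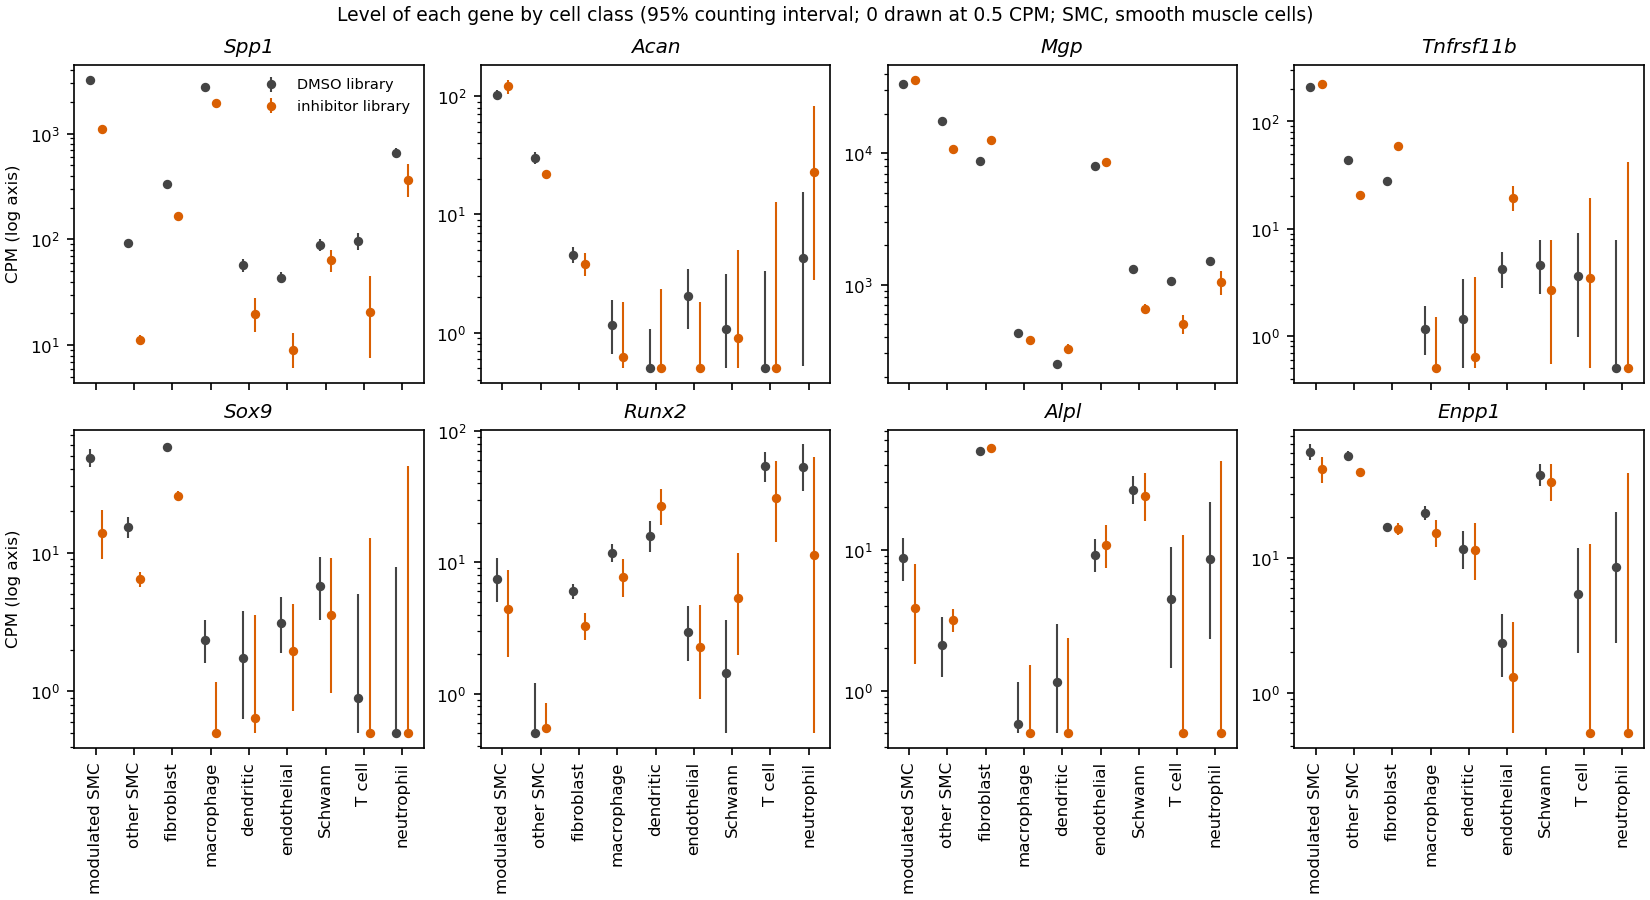
CPM of each gene by class and library on log axes, with exact 95% Poisson intervals as bars. Spp1 differs between libraries in most classes, whereas Acan, Mgp and Tnfrsf11b in modulated smooth muscle-like cells lie close together.

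**Figure D4:**
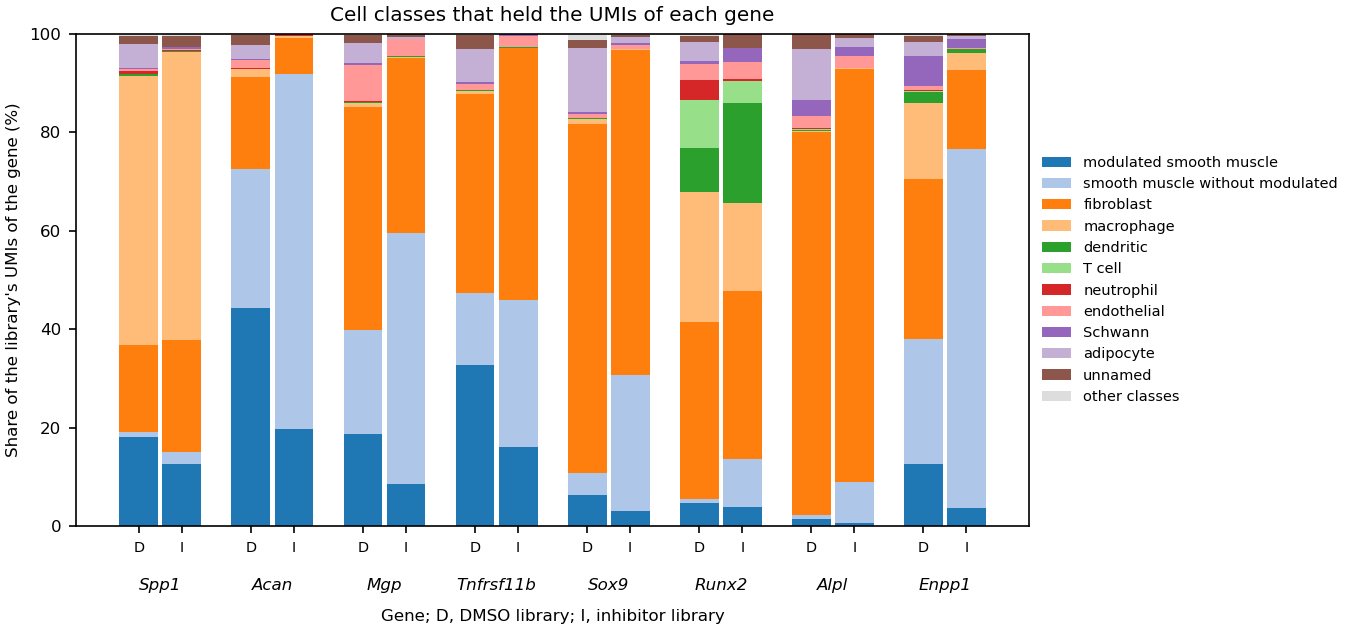
Share of each gene's UMIs, in percent of its library's total, that came from each class, for DMSO and inhibitor. Macrophage-like cells give the largest share of Spp1 in both libraries (54.7% and 58.4%) and fibroblast-like cells that of Alpl (77.8% and 83.9%).

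The libraries were then compared within classes. A gene counted as measured where either library reached 20 CPM and both together 20 UMIs. It was called higher or lower where inhibitor and DMSO differed 1.5-fold or more and the interval of their ratio did not hold 1. In modulated smooth muscle-like cells 6 of the 8 genes were measured, 2 were called lower and 0 higher, beside 6.19% of all measured genes called lower and 3.47% higher. The lower ones were Spp1, with a ratio of 0.346 (0.330 to 0.363), and Sox9, with 0.287 (0.181 to 0.436). Acan, at 1.17 (0.991 to 1.39), Mgp, at 1.06, and Tnfrsf11b, at 1.06 (0.936 to 1.19), were within 1.5-fold, as was Enpp1 at 0.742 (0.570 to 0.958). Without the highest cell of each library, chosen after the data were seen, the ratios of Spp1, Sox9 and Tnfrsf11b were 0.243, 0.202 and 0.783. The set of modulated cells depended on the filters: with at least 1000 genes per cell it held 460 and 632 cells and the Spp1 ratio was 0.156, and with at most 10% mitochondrial UMIs it was 0.209.

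In the other smooth muscle-like cells 5 genes were measured and 3 were lower, beside 5.39% of all genes lower and 2.70% higher. Spp1 had a ratio of 0.122 (0.108 to 0.138), at levels not told apart from background, as given above. Mgp had a ratio of 0.608 and Tnfrsf11b one of 0.473, while Acan, at 0.731, and Enpp1, at 0.765, missed the fold. Standardised to the pooled cluster makeup, that is with the same cluster shares in both libraries, the Tnfrsf11b ratio was 0.683 and no longer past the fold. In the contractile cluster with the most DMSO cells it was 0.541, from 58.4 and 31.6 CPM, and in another 24.0 and 23.6 CPM.

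Over all smooth muscle-like cells together 6 genes were measured and 5 were lower, beside 8.38% of all genes lower and 3.53% higher. The ratios were 0.0590 (0.0565 to 0.0617) for Spp1, 0.265 for Sox9, 0.314 for Tnfrsf11b, 0.503 for Acan and 0.524 for Mgp. Standardised to the pooled cluster makeup they were 0.321, 0.388, 0.856, 0.909 and 0.730, so 2 of the 5, Spp1 and Sox9, stayed past the fold. Without the modulated cluster, Mgp and Tnfrsf11b were still called lower, as given above.

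In fibroblast-like cells 5 genes were measured. Tnfrsf11b was higher, with a ratio of 2.13 (1.96 to 2.32), beside 5.06% of all genes higher, and Sox9 (0.447) and Spp1 (0.502) were lower, beside 7.67%. The Tnfrsf11b ratio was 1.16 after standardisation. The cluster with the highest level was 13.3% and 16.3% of fibroblast-like cells and had a ratio of 1.76, and a second Tnfrsf11b cluster, led by Angptl7 and Fmod, was 3.88% and 22.8% of them and had a ratio of 0.941. Sox9 stayed lower after standardisation, at 0.581. Its ratio was 0.353 in the cluster led by Pla1a, but 1.02 in the cluster with the highest Tnfrsf11b. Mgp had a class ratio of 1.43 and a standardised ratio of 0.767, on opposite sides of 1. Without the dividing cluster, left out after the data were seen, the Spp1 ratio was 0.130. Alpl was 1.05 (0.970 to 1.13) in the class, and 1.51 in the cluster led by Myoc and Sfrp4, with 87.8 and 133 CPM.

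In macrophage-like cells 3 genes were measured and none was called, beside 3.34% of all genes higher and 4.22% lower. The ratios were 0.710 (0.694 to 0.727) for Spp1, 0.882 for Mgp and 0.710 (0.542 to 0.920) for Enpp1. Standardised to the pooled cluster makeup the Spp1 ratio was 1.01.

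Dendritic-like, endothelial-like and Schwann-like cells gave few calls. In dendritic-like cells Runx2 was higher, at 1.68 (1.10 to 2.56), beside 3.48% of all genes, and Spp1 lower, at 0.347, beside 9.86%. Without the highest cell of each library the Runx2 ratio was 1.45, short of the fold. In endothelial-like cells Spp1 was lower, at 0.210, beside 8.83% lower and 4.62% higher, at levels not told apart from background. In Schwann-like cells Mgp was lower, at 0.501, beside 5.97% lower and 5.68% higher, and with doublets kept the ratio was 1.56. Its Schwann-like level was only 253 and 157 CPM above the T cell-like one, which was also lower in the inhibitor library. The ratio of these remainders was 0.622, and the part of free RNA was not tested.

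**Figure D5:**
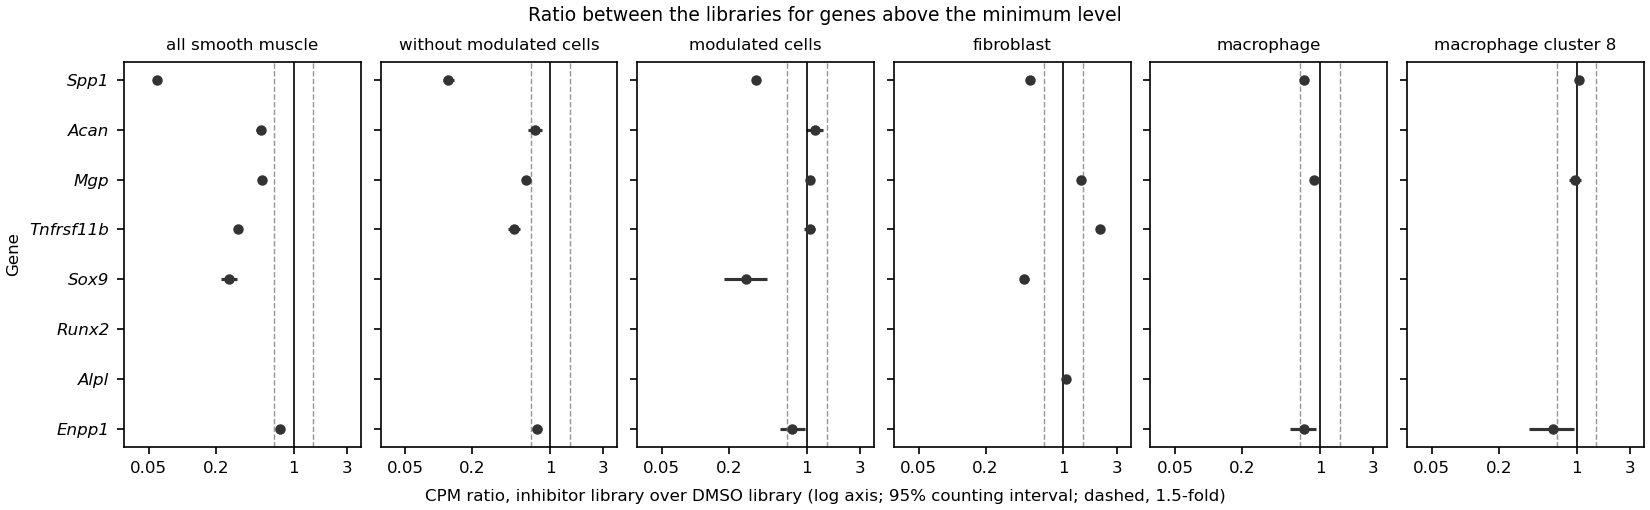
Ratio of inhibitor to DMSO CPM (log axis) of each measured gene by class, with exact 95% intervals from the counts and lines at 1 and at the 1.5-fold limits. The macrophage-like cluster with the highest Spp1 has a panel of its own. Spp1 lies below 1 in each class shown, but above 1 in that cluster. Tnfrsf11b lies above 1 in fibroblast-like cells (2.13) and below it in smooth muscle-like cells without the modulated cluster (0.473).

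Over the 27 clusters with at least 50 cells in each library, Spp1 was measured in 26. Its ratio was below 1 in 24 of them, with a median of 0.26, and above 1 in the 2 macrophage-like clusters named above. The T cell-like level, which free RNA can set, was also lower in the inhibitor library, and its part in each ratio was not tested. Subtracting it gave ratios of 0.350 in modulated, 0.728 in macrophage-like and 0.619 in fibroblast-like cells. Sox9 was measured in 7 clusters and was below 1 in 6, with a median of 0.467. Alpl was measured in 9 and was above 1 in 7, with a median of 1.51. Mgp was measured in all 27, below 1 in 16 and above 1 in 11.

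Whether the genes met in the same cells was read after thinning each cell to 2000 UMIs. Of 6 genes (Spp1, Acan, Tnfrsf11b, Sox9, Runx2 and Alpl), at least 2 were seen in 18.2% (13.1 to 24.3) of modulated DMSO cells and 10.0% (4.68 to 18.1) of modulated inhibitor cells. The other smooth muscle-like cells reached 1.21% and 0.735%, and fibroblast-like cells 3.31% and 1.46% as a class. The fibroblast-like cluster with the highest DMSO Sox9 reached 26.4% (16.7 to 38.1) in DMSO, with 10 cells in the inhibitor library. The dividing cluster reached 7.59% and 9.62%. Such cells were therefore not particular to the modulated cluster. Spp1 was seen in 44.0% of the 50 modulated DMSO cells with Tnfrsf11b and in 28.4% of the 148 without it. It was seen in 57.1% (34.0 to 78.2) of the 21 with Enpp1 and in 29.4% (22.8 to 36.7) of those without it. For Acan the shares were 36.4% with and 31.8% without. In each of these 3 pairs the intervals overlapped. In the inhibitor library Spp1 was seen in 41.2% of the 17 modulated cells with Tnfrsf11b and 17.8% of those without it. The shares were 54.5% of 11 and 17.7% for Enpp1, and 7.14% of 14 and 25% for Acan, again with overlapping intervals.

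The wider programme was read from 10 lists of bone, cartilage and mineral genes, with 153 genes in the files. In modulated smooth muscle-like cells 78 list genes were measured, of which 5 were higher and 21 lower, beside 3.47% and 6.19% of all measured genes. The cartilage matrix list had 6 measured genes with a median log2 ratio of -1.41, beside 0.01 over all genes; 4 were lower and 1 higher. Col11a1, a fibrillar cartilage collagen, was 49.3 and 4.98 CPM, and Fmod, encoding fibromodulin, 95.3 and 19.9 CPM. Prg4, encoding lubricin, was higher, from 154 to 452 CPM. Among 6 ossification transcription factors 3 were lower, including Trps1 (46.0 and 22.1 CPM) and Twist1 (51.1 and 27.1 CPM), and Zbtb16 was higher (23.4 and 50.9 CPM). Both collagen I genes were lower, Col1a1 at 9156 and 4846 CPM and Col1a2 at 7826 and 4527 CPM. Both also mark fibroblasts, and the summed fibroblast markers of these cells were 30400 and 17890 CPM, while their smooth muscle markers were 19520 and 25610 CPM. The part of this shift in the list values was not tested. In the Wnt list 4 of 9 were lower, among them the secreted antagonists Sfrp4 and Sfrp1, and none higher. In the BMP list 2 of 17 were higher, Id1 (78.3 and 151 CPM) and Id2, both target genes of BMP signalling, and 3 were lower, with Bmp4 at 33.9 and 14.4 CPM. The list of osteopontin receptors and proteases had 1 of 12 higher, Itga5 (244 and 367 CPM), and 1 lower, Mmp3 (248 and 54.8 CPM). Some of these shifts were not particular to modulated cells. Mmp3 was also called lower in every other class compared, with ratios from 0.336 in dendritic-like to 0.633 in fibroblast-like cells. Zbtb16 was also higher in fibroblast-like, macrophage-like, endothelial-like and Schwann-like cells. Both collagen I genes were also lower in macrophage-like, dendritic-like and endothelial-like cells. The 2 measured genes of the RANK list were not called. Of the remaining lists, chondrogenic transcription factors had 1 of 4 lower (Klf4, 254 and 119 CPM), phosphate and pyrophosphate genes 2 of 10 and vitamin K dependent or circulating inhibitors 1 of 6 (Gas6, 491 and 276 CPM).

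The other smooth muscle-like cells had 67 list genes measured, with 4 higher and 10 lower, beside 2.70% and 5.39% of all measured genes. Sost, encoding sclerostin, a Wnt antagonist best known from osteocytes, was higher, from 361 to 570 CPM, as were Id1 (140 and 287 CPM), Id2 and Sfrp2. Runx1 (23.3 and 8.56 CPM), Klf4 (226 and 117 CPM), Frzb (52.5 and 18.8 CPM) and Ank (66.6 and 44.2 CPM), which exports pyrophosphate, were among the lower ones. In fibroblast-like cells 15 of 79 list genes were higher, among them Fmod (75.4 and 305 CPM) and Bmp4 (54.5 and 132 CPM), and 17 were lower, among them Runx1 (207 and 69.6 CPM), Prg4 (831 and 351 CPM) and Sfrp1 (590 and 182 CPM), beside 5.06% and 7.67% of all measured genes. Fmod was thus lower in modulated smooth muscle-like cells and higher in fibroblast-like cells, and the difference between the classes was not tested. The fibroblast-like cluster led by Angptl7 and Fmod was 3.88% of DMSO and 22.8% of inhibitor fibroblast-like cells. The part of this makeup in the class value of Fmod was not tested. In macrophage-like cells 4 of 50 were higher and 8 lower, beside 3.34% and 4.22%. The lower ones included the resorption genes Ctsk (33.1 and 15.1 CPM) and Acp5 (160 and 94.1 CPM). Neither fall was particular to macrophage-like cells. Ctsk was also lower in endothelial-like cells (25.9 and 6.84 CPM) and over all smooth muscle-like cells (42.6 and 16.15 CPM), and Acp5 in dendritic-like cells (42.2 and 26.8 CPM).

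The genes whose cluster profile was most like each member were ranked by Pearson's r of log2(CPM + 5) over 41 clusters, which share libraries and depth and are not replicates. For Acan these were Bdnf (0.881), Wnt16 (0.880) and Hs6st2 (0.865). For Mgp they were Bgn (0.946), Pam (0.934) and Pdgfrb (0.923), and for Tnfrsf11b Ltbp2 (0.846), Thbs2 (0.799) and Scarf2 (0.792). For Sox9 they were Egfr (0.852) and C1ra (0.847), for Runx2 the lymphocyte activation gene Cd69 (0.856) and Limd2 (0.855), and for Alpl Sfrp4 (0.777) and Pcsk5 (0.777). Spp1 had weaker matches, 1700017B05Rik (0.648), Ccl2 (0.630) and Trem2 (0.610), as had Enpp1, with Fbxo32 (0.694). Among the members themselves the closest pair was Mgp and Tnfrsf11b (0.777), followed by Acan and Enpp1 (0.603).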

How the data were processed

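The authors deposited whole-number UMI counts for each gene in each barcode, from Cell Ranger 6.1.1 per the file headers. GRCm38 and Seurat are named in the submitters' processing notes. How barcodes were chosen is not stated there. The members and the gene lists were chosen with earlier results of these data known.

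Barcodes under 200 genes or over 20% mitochondrial UMIs were dropped, in all 18 and 443 DMSO and 10 and 282 inhibitor barcodes. Scrublet, at an expected rate of 6%, called 0 DMSO cells at its automatic threshold (0.659), so the inhibitor library's 0.214 was then applied to both and removed 253 and 440 cells. The libraries were joined without integration and clustered on 2000 variable genes that left out the members, the list genes and the markers (10000 UMIs per cell, 30 principal components, 15 neighbours, Leiden, seed 0). Resolution 1 was planned, but it placed the modulated cells in 1 cluster with dividing cells, so resolution 2 was used after this was seen, and resolutions 1 and 0.5 became alternatives. Of 50 clusters 44 were named by at least 3 markers (each in 20% of cells or more and, on the log2 scale, 1 or more above percentile 25 of the remaining clusters), a score of at least 1.5 and a median of at least 1000 UMIs. A smooth muscle-like cluster with at least 10 of 14 modulated markers was called modulated. Names were rebuilt here, since no deposited annotation was used, and class values follow each class's cluster makeup.

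Within each library, the UMIs of a class were added up per gene and given per 1000000 (CPM). Classes of 100 or more cells per library, and the modulated cluster, were compared. Levels have exact Poisson intervals, shares exact Clopper-Pearson intervals, ratios exact conditional binomial intervals, and 0 counts allow up to 3. The call rule and cell thinning are given with the results. The rule was also run on simulated counts that held counting error only. That run cannot show how the rule behaves under the spread between cells or libraries. All 8 members were named in every class, then up to 2 called genes per list, class and direction with the largest ratio, and up to 5 genes most like each member. The text prints those the results turn on. Columns of other samples numbered 0. Apoe, the deleted gene, was counted at 319 and 109 CPM, but 3' reads need not cover the deleted part, so this checks nothing. Python 3.11.15, scanpy 1.11.5, leidenalg 0.10.2, numpy 2.4.6, scipy 1.17.1 and pandas 2.3.3 were used.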

Additional observations from a re-analysis of the deposited data

Results flagged for a closer look

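Tnfrsf11b moved in opposite directions in 2 cell classes. Its ratio of inhibitor to DMSO was 2.13 in fibroblast-like cells and 0.473 in smooth muscle-like cells without the modulated cluster, each from 1 library per group. The difference between the classes was not tested. Both values lie closer to 1 when standardised to the pooled cluster makeup, at 1.16 and 0.683.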

How the results depend on the processing

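No paired analysis was possible because each group holds 1 library and the labels give no shared replicate numbers; leaving out a library was not possible for the same reason. Under the alternatives run, member counts per class stayed within 1.5 times in 165 values and moved in 23. The 23 were small counts. In smooth muscle-like cells 5 members were lower, but 3 at Leiden resolution 1, 2 standardised to the pooled makeup and 3 at a fold of 2. In fibroblast-like cells 1 was higher, but 2 with doublets kept, 0 standardised and 2 after subtracting the T cell-like level, and 2 were lower, but 1 at a fold of 2. In macrophage-like cells none was called, but Mgp was higher with doublets kept (count of 1) and Runx2 lower at 5 CPM and 10 UMIs (1). In dendritic-like cells 1 was higher, but 0 by mean per-cell CPM, 0 after subtraction, 0 at a fold of 2 and 0 without the highest cell, and 1 was lower, but 0 after subtraction. In endothelial-like cells none was higher, but 1 without the 20 genes with the most UMIs, 1 by mean per-cell CPM and 1 at 5 CPM, and 1 was lower, but 0 after subtraction. In Schwann-like cells none was higher, but 1 with doublets kept and 1 after subtraction, and 1 was lower, but 2 standardised, 0 at a fold of 2 and 2 without the highest cell. The T cell-like level exceeded dendritic-like Runx2 and Spp1 and endothelial-like Spp1 in both libraries. Those calls were therefore lost to the subtraction by construction. Schwann-like Spp1 lay below the T cell-like level in DMSO and was set to 0 there, which gave the higher call. The Mgp ratio in Schwann-like cells, 0.501, turned to 1.56 with doublets kept; the cause was not tested.

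At 5 CPM and 10 UMIs, where more genes are measured, list genes were 7 higher and 14 lower in macrophage-like cells (4 and 8 otherwise), 4 higher in dendritic-like cells (2) and 9 higher in modulated cells (5). Of the single ratios 299 kept their side of the fold, 8 passed it, 11 no longer did, 1 moved and 1 reversed. Shares of cells with a UMI were the least stable kind: 170 stayed within their interval and 103 moved, among them the thinned shares, which are lower by construction. The count of 2 lower members in modulated cells was the same in each alternative that gave a value, and that of 3 in the other smooth muscle-like cells ranged from 2 to 4. At Leiden resolutions 1 and 0.5 no cluster was called modulated, so no value was had there. Runx2 and Alpl in smooth muscle are limited by depth, at a few CPM.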

Other observations

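Genes of mature bone and cartilage, looked up after the members' values had been seen, were rare. Col2a1, the main cartilage collagen, had 135 UMIs in DMSO and 20 in the inhibitor library. Of the DMSO UMIs 75 were in modulated smooth muscle-like cells, where 10.6% of cells had one, and in the inhibitor library 7 were. Col10a1, of hypertrophic cartilage, had 21 and 12 UMIs, and the osteoblast factor Sp7 3 and 4. Bglap, encoding osteocalcin, had 12 and 19 UMIs, of which 12 were in 1 modulated inhibitor cell. Ibsp, encoding bone sialoprotein, had 227 and 42 UMIs and none in modulated cells, and 185 of the DMSO UMIs were in 1 adipocyte-like cluster. Mepe, an osteocyte gene, had 0 in both.

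Sost and Hapln1 were seen more often in the other, contractile, smooth muscle-like cells. Sost had 3986 and 21651 UMIs, with a UMI in 67.0% and 82.8% of the other smooth muscle-like cells and in 21.2% and 28.3% of modulated ones. Hapln1, a cartilage link protein that binds aggrecan to hyaluronan, was seen in 13.3% and 10.3% of the other smooth muscle-like cells and in 1.01% and 1.09% of modulated cells, although Acan was higher in the latter.

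Tnfsf11, encoding RANKL, the ligand that osteoprotegerin binds, had 513 UMIs in DMSO and 51 in the inhibitor library. The fibroblast-like cluster led by Cxcl14, Saa3 and Il6 held 262 of the DMSO UMIs, and its Tnfrsf11b level was 16.5 and 13.8 CPM. Its receptor Tnfrsf11a had 1228 and 1113 UMIs, with a UMI in 23.2% and 18.2% of the other smooth muscle-like cells. Fgf23, a phosphate-regulating hormone of bone, had 195 and 18 UMIs, 78 of the DMSO UMIs in the same fibroblast-like cluster.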
